A study of Mus musculus with 6 samples.

Results

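Chemokine genes of the CC and CXC families were examined in the hippocampus of mice after focal cerebral ischemia or a sham operation. The members are all rows of the authors' deposited table whose symbol is Ccl or Cxcl followed by digits, 7 of 637 genes. They are the CC ligands Ccl2, Ccl3, Ccl6, Ccl7 and Ccl24 and the CXC ligands Cxcl1 and Cxcl2. Every mouse was of the C57BL/6 strain and 56 days old, and no genetic change is given for either group. The 3 ischemia samples followed focal occlusion of the middle cerebral artery, a stroke model, and the 3 sham samples followed the operation without it. Both groups are titled 2 h, which could mean how long the artery was blocked or when tissue was taken, and the labels do not say which hemisphere was taken. The table lists only genes that the authors called, so each member had to differ between the groups to be found, and that it differs is no separate finding. The table's columns M2 and S2 were taken to be ischemia and sham, on which every direction depends.

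Chemokines are small secreted proteins that draw leukocytes along a concentration gradient by way of G protein-coupled receptors. They are grouped by the spacing of their first cysteines, which are adjacent in CC ligands and separated by another residue in CXC ligands. Ccl2 and Ccl7 attract monocytes through the receptor Ccr2. Ccl3 acts on monocytes and other leukocytes through Ccr1. Ccl6 is made by cells of the macrophage lineage, Ccl24 is best known as an attractant of eosinophils through Ccr3, and Cxcl1 and Cxcl2 attract neutrophils through Cxcr2. In the injured brain such ligands are known products of microglia, astrocytes, endothelium and macrophages. With Ccl24 among them, the members reach beyond attractants of monocytes and neutrophils.

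The members lie in gene clusters of which only part is listed. In the order of genes in the RefSeq table, Ccl2 and Ccl7 are neighbours on chromosome 11, followed by Ccl11, Ccl12, Ccl8 and Ccl1, which are not listed. Ccl6 and Ccl3 lie in another cluster of that chromosome with Ccl5, Ccl9 and Ccl4, which are not listed, although Ccl4 is the neighbour of Ccl3. Cxcl1 and Cxcl2 are neighbours on chromosome 5, in a cluster with Cxcl5, Ppbp, Pf4, Cxcl3 and Cxcl15, which are not listed. Ccl24 lies elsewhere on chromosome 5 beside the unlisted Ccl26. A gene that is not listed has no value, so neither its level nor its change is known.

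RefSeq promoter sequence (GRCm38.p6) was matched by symbol for 4 of the 7 members, Cxcl1, Cxcl2, Ccl3 and Ccl6, and not for Ccl2, Ccl7 and Ccl24. The 250 bases before each annotated start are shown 5′ to 3′ because the neighbours Cxcl1 and Cxcl2 share a kappaB motif, the sequence bound by NF-kappaB, which is in capitals. The windows are chr5:90890995-90891244 and chr5:90903649-90903898 on the plus strand and chr11:83649379-83649628 and chr11:83593088-83593337 on the minus strand.
Cxcl1: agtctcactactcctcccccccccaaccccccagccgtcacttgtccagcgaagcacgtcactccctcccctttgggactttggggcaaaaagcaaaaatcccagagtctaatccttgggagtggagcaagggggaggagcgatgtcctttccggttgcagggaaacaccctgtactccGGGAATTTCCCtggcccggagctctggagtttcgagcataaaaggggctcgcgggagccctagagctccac
Cxcl2: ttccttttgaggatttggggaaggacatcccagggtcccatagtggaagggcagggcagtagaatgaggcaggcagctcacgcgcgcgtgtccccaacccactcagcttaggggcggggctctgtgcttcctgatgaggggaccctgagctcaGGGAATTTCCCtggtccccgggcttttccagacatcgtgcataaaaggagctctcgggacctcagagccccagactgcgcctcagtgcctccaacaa
Ccl3: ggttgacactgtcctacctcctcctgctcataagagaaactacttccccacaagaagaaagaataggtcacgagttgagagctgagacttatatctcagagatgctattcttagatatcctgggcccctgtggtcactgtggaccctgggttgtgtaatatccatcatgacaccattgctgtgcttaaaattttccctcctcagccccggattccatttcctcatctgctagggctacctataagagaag
Ccl6: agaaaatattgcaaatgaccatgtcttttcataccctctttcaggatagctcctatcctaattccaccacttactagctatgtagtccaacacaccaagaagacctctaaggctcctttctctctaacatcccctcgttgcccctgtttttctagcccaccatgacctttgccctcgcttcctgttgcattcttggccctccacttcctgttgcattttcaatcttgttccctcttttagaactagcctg
The kappaB motif was searched on both strands, and in Cxcl1 and Cxcl2 it matched at overlapping positions that together make GGGAATTTCCC, 61 to 71 bases before the start of Cxcl1 and 87 to 97 bases before that of Cxcl2. Their longest shared run was 14 bases, GGGAATTTCCCTGG, against runs of 7 or 8 bases in every other pair of the 4 windows. A kappaB match was found in 3.90% of all 32851 promoter windows of that length and in 9.09% of the 363 windows of listed genes that were higher in ischemia. The motifs TGANTCA (AP-1), TGACGTCA (cyclic AMP response element) and TATAAA had 0 matches in the 4 windows and occur in 6.75%, 1.55% and 12.4% of all windows. Among the 363 windows of higher genes these 3 motifs occur in 5.23%, 7.44% and 10.2%. The motif GGGCGG (GC box), found in 32.7% of all windows and in 61.7% of those of higher genes, matched in Cxcl2 alone among the 4. These matches describe the sequence and do not show that a factor was bound.

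All 7 members were higher in ischemia in the authors' deposited table, from 2.34-fold for Ccl6 to 102-fold for Ccl7, with Cxcl2 listed at 0 in sham. Of 21 CC ligand genes of the mouse, 5 were listed as higher, 0 as lower and 16 were not listed, and of 13 CXC ligand genes 2 were higher, 0 lower and 11 not listed. The 7 of 34 ligands make up 20.6%, while 1.47% of the 28319 genes that the authors tested were called higher, 0.784% lower and 2.25% in either direction. The ligands were chosen with earlier results of these data known, so their larger share is no separate finding. Whether every unlisted ligand was among the genes tested is unknown. The median log2 fold change was 3.43 for the 7 members, 1.07 for the 415 higher genes and 0.66 for all 637 listed genes in the authors' deposited table. The members had few reads in sham: their median sham mean was 8.09 normalised reads, against 943 for all higher genes in the authors' deposited table. A gene with few reads is called only where its fold is large, so the larger median fold of the members is no separate finding. A normalised read is a read count divided by a size factor of its library, and how the authors set that factor is not given.

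**Figure D1:**
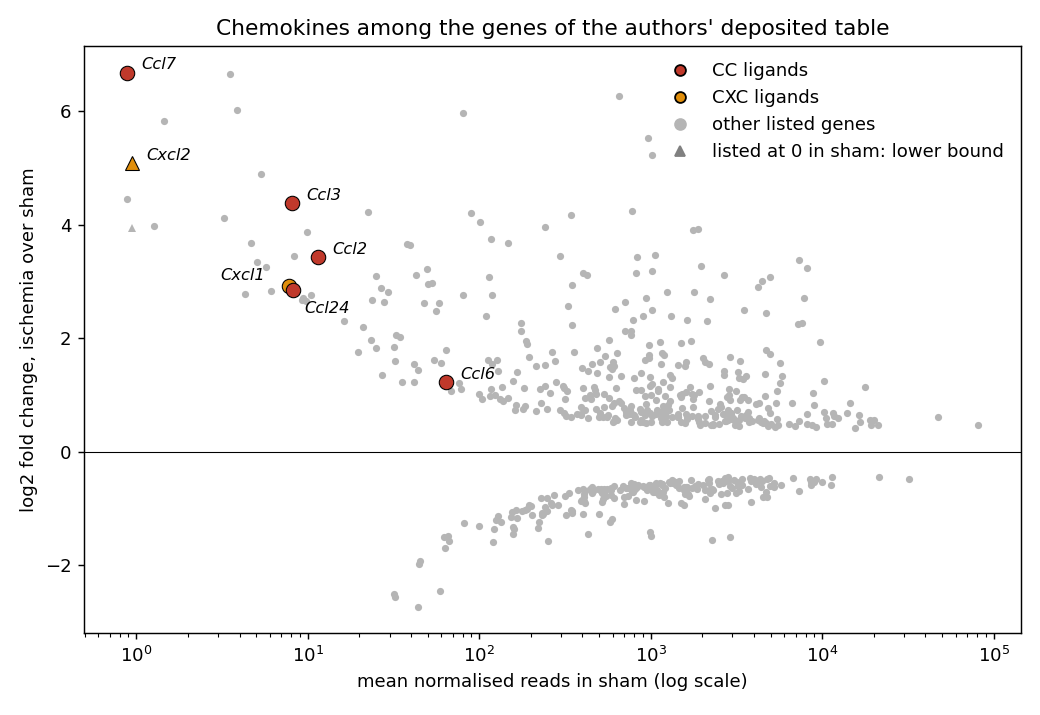
Log2 fold change (ischemia over sham, vertical axis) against the mean normalised reads in sham (log axis) for the 637 genes of the authors' deposited table, each point a gene. The 5 CC ligands (red) and 2 CXC ligands (orange) lie among the genes with fewest sham reads, from Ccl6 at 64.2 reads to Ccl7 at 0.880, and triangles mark genes at 0 in sham, drawn at a lower bound.

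The deposited values are means of 3 libraries, and the means of the 7 members could each be separated into whole reads per library in 1 way only. The libraries are lettered A, B and C by falling size factor within each group, and which replicate of the titles each one is cannot be known. The same letter in the 2 groups therefore does not link an ischemia library with a sham library. The size factors of the libraries, taken here as relative depth, lay between 0.837 and 1.20, and total reads are unknown. The labels do not say that samples came from separate animals, so the spread may be technical. In every member each ischemia library lay above each sham library, which held for 100% of the 66 higher genes that could be separated in both groups, so nothing particular to chemokines follows from it. No permutation test of single members is given, since groups that do not overlap fix its result at the smallest p that 3 against 3 libraries allow, 0.1.

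Ccl7 and Ccl2, the neighbouring ligands of the monocyte receptor Ccr2, differed most in sham, where Ccl7 was nearly absent. Ccl7 had 77.2, 111.6 and 81.3 normalised reads in ischemia libraries A, B and C. In sham libraries A, B and C it had 0.833, 1.81 and 0, which rest on 1, 2 and 0 reads. Ischemia library B was the highest, and the lowest ischemia library was 42.7 times the highest sham library. The authors' deposited table gives Ccl7 90.0 against 0.880, a log2 fold change of 6.68 (adjusted p = 1.82e-19). With 259 reads in ischemia and 3 in sham, the depth-scaled ratio was 94.1, with an exact 95% interval from 31.8 to 459 that covers counting error only. The log2 fold change of Ccl7 was 7.76 when sham library B was left out and 6.09 when sham library C was, so its size rests on those few reads.

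Ccl2 had 108.7, 185.6 and 74.1 normalised reads in ischemia libraries A, B and C. Its sham libraries A, B and C had 15.8, 8.13 and 10.3, from 19, 9 and 9 reads. Library B was again the highest in ischemia, and library C the lowest. The authors' deposited table gives Ccl2 122.8 against 11.4, a 10.8-fold rise (adjusted p = 0.00321), and leaving out single libraries moved the fold between 8.01 and 13.3. The coefficient of variation (SD over mean) of Ccl2 in ischemia was 0.465, against 0.0927 from counting error alone and a median of 0.261 over the 59 other higher genes that could be separated.

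Ccl3, an attractant of monocytes and other leukocytes, was the most uneven member. It had 167.7, 284.7 and 51.4 normalised reads in ischemia libraries A, B and C. In sham libraries A, B and C it had 5.0, 13.5 and 5.72. Ischemia library B held 5.54 times the level of library C, and sham library B stood above the other sham libraries. The coefficient of variation in ischemia was 0.695 for Ccl3, against 0.0793 from counting error alone. The authors' deposited table gives Ccl3 167.9 against 8.09, a 20.8-fold rise with the weakest call of the members (adjusted p = 0.0498), just inside the authors' limit of 0.05. The fold of Ccl3 was 13.5 without ischemia library B and 31.3 without sham library B.

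Ccl6, a ligand of the macrophage lineage, was the member with the most sham reads and the smallest rise. It had 127.8, 174.2 and 148.2 normalised reads in ischemia libraries A, B and C. Its sham libraries A, B and C had 45.0, 85.8 and 61.8. The lowest ischemia library was 1.49 times the highest sham library, the narrowest gap of the members. The authors' deposited table gives Ccl6 150.1 against 64.2, a 2.34-fold rise (adjusted p = 0.00435). With 431 reads in ischemia and 203 in sham it is also the best counted in sham, and omission of single libraries kept its fold between 2.03 and 2.81.

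Ccl24, the eosinophil attractant, had 51.5, 49.0 and 77.7 normalised reads in ischemia libraries A, B and C. In sham libraries A, B and C it had 1.67, 8.13 and 14.9, from 2, 9 and 13 reads. Library C was the highest in ischemia, where the other members were highest in library B, and sham library C was the highest in sham. The authors' deposited table gives Ccl24 59.4 against 8.22, a 7.22-fold rise (adjusted p = 1.73e-05). Without sham library C its fold was 12.1.

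Cxcl1 and Cxcl2, the neutrophil attractants, both rose, and Cxcl2 had no sham read. Cxcl1 had 40.7, 87.7 and 49.0 normalised reads in ischemia libraries A, B and C. Its sham libraries A, B and C had 1.67, 17.2 and 4.58, with 19 of its 25 sham reads in library B. Ischemia library B and sham library B were each the highest of their own group. The authors' deposited table gives Cxcl1 59.1 against 7.80, a 7.58-fold rise (adjusted p = 0.00950), and the fold was 18.9 without sham library B.

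Cxcl2 had 31.5, 35.3 and 28.7 normalised reads in ischemia libraries A, B and C, from 38, 31 and 24 reads, and 0 reads in each sham library. It was the most even member in ischemia, with a coefficient of variation of 0.104 against 0.182 from counting error alone. The authors' deposited table gives Cxcl2 31.8 against 0 (adjusted p = 1.99e-07) and no finite fold. Against a floor of 3 reads over the sham group, Cxcl2 was at least 33.8-fold higher in ischemia. That floor leaves out the counting error of the 93 ischemia reads, and the exact 95% interval of the ratio of reads begins lower, at 26.9. The bound from the floor was 21.0 without sham library A and 22.0 without sham library B, since fewer libraries raise the floor. In the GENCODE M21 transcripts, 6.85% of the 36-base stretches of Cxcl2 also occur in its unlisted relative Cxcl3, so some reads could belong to either gene. The same count was 0.740% for Ccl6 and 0% for the other members, and no exon of a member overlaps one of another gene in that annotation.

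**Figure D2:**
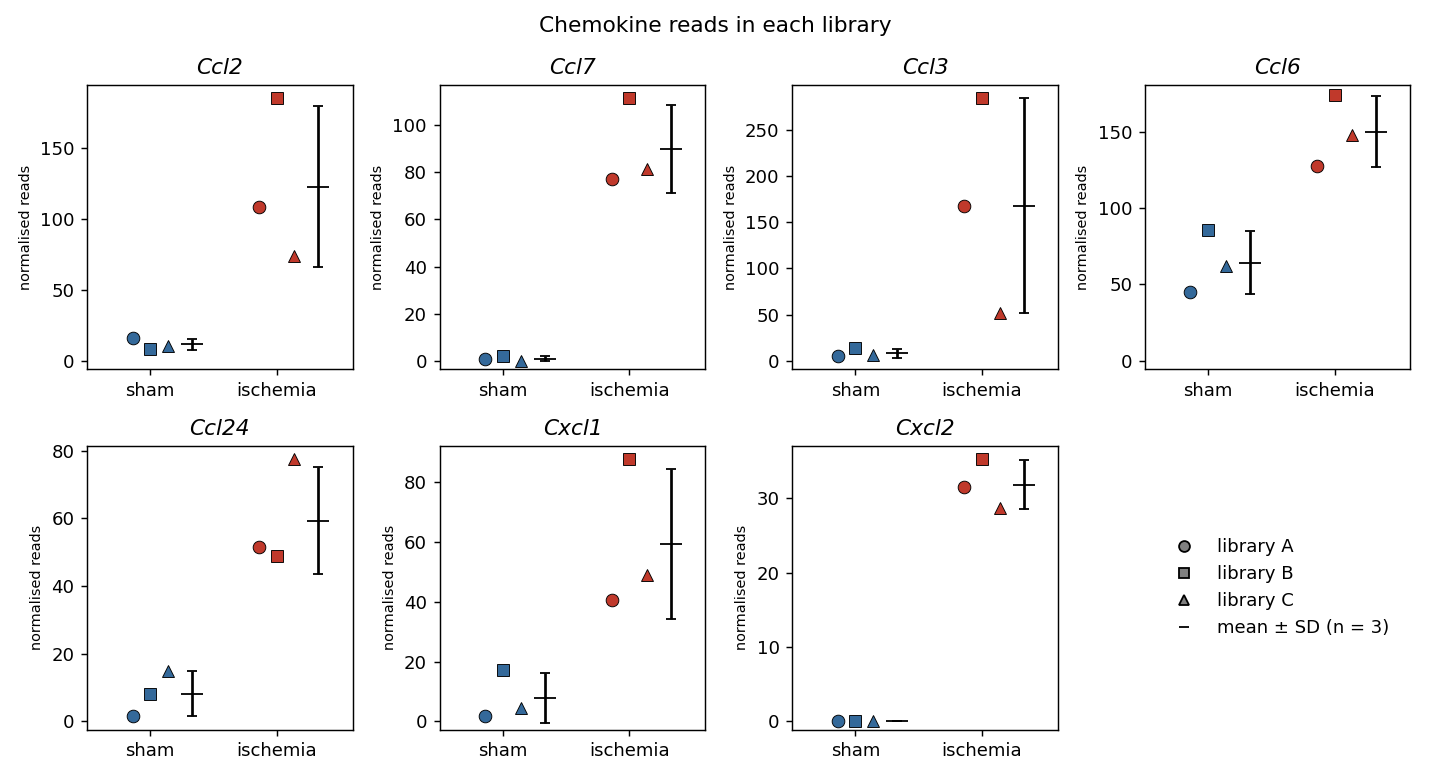
Normalised reads (vertical axis, its own scale in each panel) of the 7 members in the 3 sham (blue) and 3 ischemia (red) libraries, with marker shapes for libraries A, B and C and the mean ± SD beside them. Every ischemia point lies above every sham point, and library B is the highest ischemia point in all panels except Ccl24.

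Most members were highest in the same ischemia library, while their lowest ischemia library differed. Library B was the highest in 6 of the 7 members, all except Ccl24, while among the 59 other higher genes it was the highest in 27.1% and library C in 45.8%. Library C was the lowest for Ccl2, Ccl3 and Cxcl2, library A for Ccl6, Ccl7 and Cxcl1, and library B for Ccl24. In sham, library B was the highest in 4 members, Ccl3, Ccl6, Ccl7 and Cxcl1, library A in Ccl2 and library C in Ccl24, while among the 59 other higher genes library B was the highest in 35.6%. The spread of Cxcl2 in ischemia lay under counting error (coefficient of variation 0.104 against 0.182), so the order of its libraries is uncertain. The sham order of Ccl7 rests on 3 reads. These counts describe single libraries, and genes of one library are not independent.

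**Figure D3:**
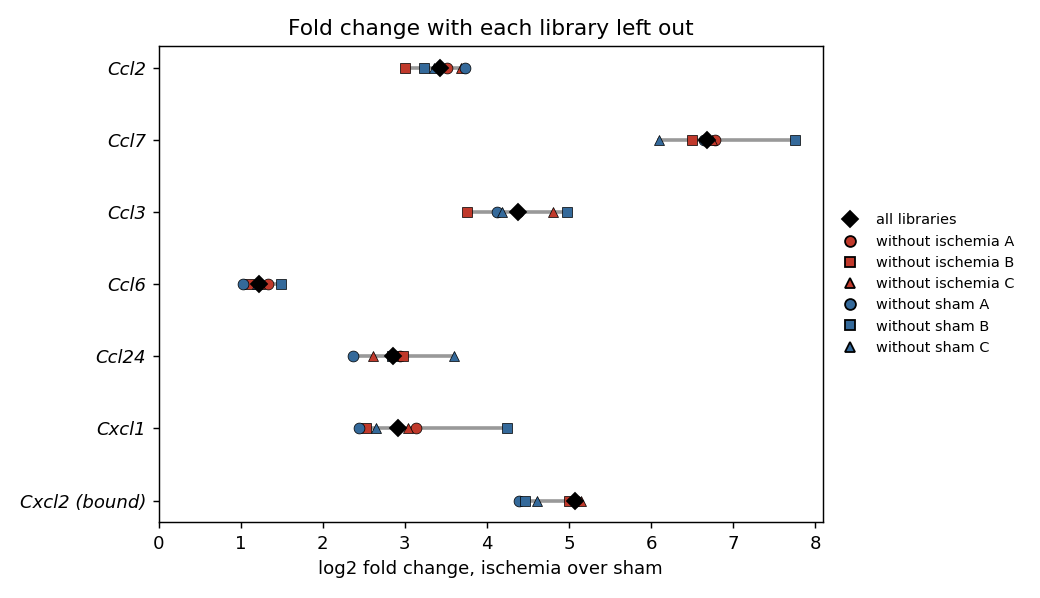
Log2 fold change of each member (horizontal axis) with all libraries (black diamonds) and with each of the 6 libraries left out (red for ischemia, blue for sham). All points lie above 1, the widest spans are those of Ccl7 (6.09 to 7.76) and Cxcl1 (2.44 to 4.24), and Cxcl2 is drawn at its lower bound.

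Between genes, levels were compared per kilobase of the longest annotated transcript in GENCODE M21, matched by symbol. The authors' gene identifiers are mostly of another annotation, Ensembl BALB/cJ, so the gene models behind the reads may have other lengths. In sham, Ccl6 led at 44.6 ± 14.2 normalised reads per kilobase (SD, n = 3), and each of its libraries lay above each library of the other members. It was followed by Ccl3 at 10.6 ± 6.19, Ccl2 at 10.4 ± 3.62, Ccl24 at 6.35 ± 5.10, Cxcl1 at 4.17 ± 4.40 and Ccl7 at 1.10 ± 1.13 normalised reads per kilobase, neighbours in this order overlapping between libraries. Ccl6 made up 57.8% of the summed level of the 7 members in sham and 16.3% in ischemia, or 74.9% and 31.7% with the shortest transcript of each gene. In ischemia the order was Ccl3 at 219 ± 152, Ccl7 at 112.4 ± 23.5, Ccl2 at 112.1 ± 52.1 and Ccl6 at 104 ± 16.2 normalised reads per kilobase, which overlapped. Below them, Ccl24 at 45.9 ± 12.3 did not overlap Ccl6 but overlapped Cxcl1 at 31.6 ± 13.4, and Cxcl2 at 15.4 ± 1.61 normalised reads per kilobase lay below Cxcl1 without overlap. Annotated lengths differ within a gene, from 442 to 1440 bases for Ccl6 and from 397 to 2066 for Cxcl2. With the shortest transcript instead, Ccl6 led in ischemia too, at 340 normalised reads per kilobase against 219 for Ccl3, and Cxcl2 at 80.2 lay above Cxcl1 at 62.0, so the order in ischemia depends on the transcript used. In sham the shortest transcripts left Ccl6 first and put Ccl24 at 14.7 and Ccl2 at 14.05 above Ccl3 at 10.6 normalised reads per kilobase, so the order below Ccl6 depends on it too.

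Summed by class, both the CC and the CXC ligands were higher in ischemia. The CC ligands went from 73.0 ± 19.4 to 594 ± 224 normalised reads per kilobase of the longest transcript (SD, n = 3), an 8.13-fold difference of the means. The CXC ligands went from 4.17 ± 4.40 to 47.0 ± 14.8, an 11.3-fold difference. The CXC share was 1.61%, 8.96% and 3.32% in sham libraries A, B and C and 6.38%, 7.08% and 9.13% in ischemia libraries A, B and C. These shares overlapped between the groups, but the overlap rests on the transcript chosen. With the shortest transcripts the CXC share was 1.31%, 7.02% and 2.51% in sham and 12.8%, 12.9% and 14.4% in ischemia libraries A, B and C, without overlap. The fold of the summed level was then 5.0 for the CC and 17.4 for the CXC ligands, and which transcripts were present is unknown, so the data do not settle whether the classes differed.

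**Figure D4:**
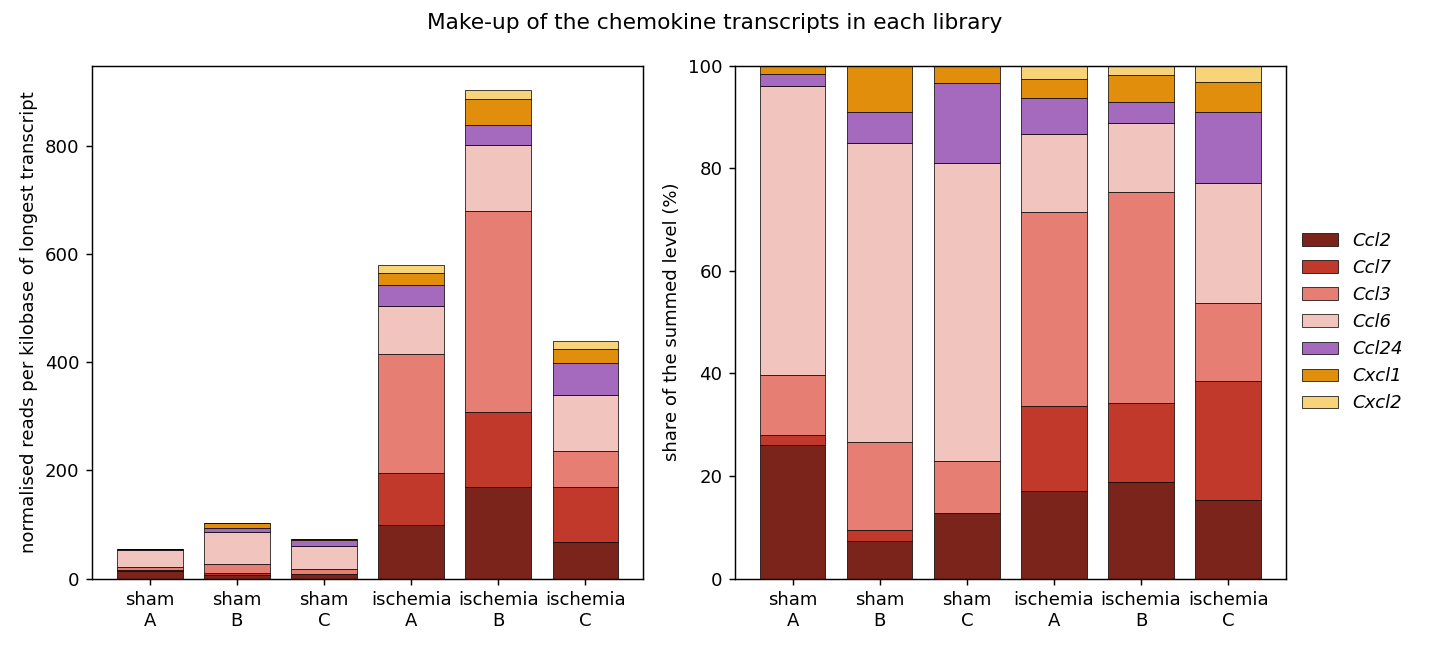
Stacked normalised reads per kilobase of the longest transcript (left) and their shares in percent (right) of the 7 members in each of the 3 sham and 3 ischemia libraries, with 1 colour per gene. Ccl6 takes 56.4% to 58.2% of each sham library and 13.4% to 23.4% of each ischemia library, while the CXC ligands (orange and yellow) stay under 10% throughout.

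Of all 28319 genes tested, 1.47% were called higher and 0.784% lower. Since the gene lists were chosen with earlier results of these data known, a share above these is no separate finding. Of the receptors, 1 of 23 was listed as higher, 0 as lower, and 22 were not listed, among them Ccr1, Ccr2 and Cxcr2. The listed one, Ccrl2, is an atypical receptor that binds the attractant chemerin. Ccrl2 had 102.9, 102.5 and 59.8 normalised reads in ischemia libraries A, B and C and 15.8, 39.7 and 19.4 in sham libraries A, B and C. The authors' deposited table gives a 3.53-fold rise (adjusted p = 0.00250), and sham library B was the highest of its group, as in 4 of the ligands.

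Of 21 cytokines that induce chemokines and their receptors and adaptors, 4 were higher, 1 was lower and 16 were not listed. Against this, 1.47% of all 28319 genes tested were called higher and 0.784% lower. Il1b, which encodes the inflammatory cytokine interleukin-1 beta, rose 17.3-fold, with an adjusted p = 0.00339, in the authors' deposited table. It had 25.7, 83.1 and 59.8 normalised reads in ischemia libraries A, B and C and 0.833, 0.903 and 8.01 in sham libraries A, B and C. Library B was the highest in ischemia, as for most ligands, and 7 of the 9 sham reads were in sham library C. The endotoxin co-receptor Cd14 rose 6.75-fold and the tumor necrosis factor receptor Tnfrsf1b 1.67-fold, while the interleukin-1 receptor Il1r1 fell 1.72-fold, with adjusted p-values of 0.0235, 0.0375 and 0.0333 in turn, per the authors' deposited table.

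Of 17 subunits and inhibitors of NF-kappaB, a transcription factor that drives many chemokine genes, 3 were higher, 0 lower and 14 not listed. Over all 28319 genes tested, 1.47% were called higher and 0.784% lower. Per the authors' deposited table, the subunit genes Rel and Nfkb2 rose 2.23-fold and 1.91-fold, and the inhibitor family member Nfkbid 1.98-fold (adjusted p = 1.63e-06, 0.00903 and 0.00447). Of 11 AP-1, ATF3 and C/EBP factors, 7 were higher, 0 lower and 4 not listed. The higher ones with the smallest p-values in the authors' deposited table were Atf3 (62.6-fold), Fos (37.4-fold), Junb (8.42-fold) and Fosl2 (7.46-fold). Of 11 factors that bind AU-rich elements and set the stability of cytokine and chemokine mRNAs, 2 were higher, 0 lower and 9 not listed. Per the authors' deposited table, Zfp36, which encodes the decay factor tristetraprolin, rose 4.80-fold (adjusted p = 1.38e-15), and its relative Zfp36l1 2.35-fold (adjusted p = 0.0433). The 12 adhesion molecules of leukocyte entry, among them Sele, Selp, Icam1 and Vcam1, were not listed.

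The samples are bulk tissue, so more cells of a type and more RNA per cell cannot be told apart. Beside the marker counts below, 1.47% of all 28319 genes tested were called higher and 0.784% lower. Of 14 neutrophil markers, 2 were higher and 12 were not listed, among them Ly6g, Mpo and Elane. The 2, S100a8 and S100a9, summed to between 57.4 and 175 normalised reads in the ischemia libraries and to between 11.7 and 19.4 in the sham libraries. Ischemia library C was the lowest for S100a8 and S100a9, as for Ccl2, Ccl3 and Cxcl2. The other members differed: Ccl6, Ccl7 and Cxcl1 were lowest in ischemia library A, and Ccl24 was highest in library C. None of 10 monocyte, 9 perivascular macrophage, 9 astrocyte or 7 pericyte markers was listed, and of 18 microglia markers 2 were higher in the authors' deposited table, Fcrls by 1.47-fold and Ly86 by 1.53-fold. Of 12 endothelial markers, 0 were higher, 11 were not listed and the transcription factor gene Sox18 fell 2.16-fold (adjusted p = 0.00347), per the authors' deposited table. The part of any of these cells in the chemokine changes was not tested. Of 11 hippocampal neuron markers the table holds a value for Dsp only, a desmosome gene of dentate granule cells that fell 2.83-fold per the authors' deposited table (adjusted p = 8.44e-07), so the labelled tissue could be checked no further.

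Genes whose group means lay nearest to a member's were found over the 2 group means, as the distance on the log2(mean + 1) scale. Ccl24 and Cxcl1 lay 0.07 apart, and both lay near Kdm6bos (0.03 and 0.10) and the bradykinin receptor gene Bdkrb2 (0.22 and 0.29). Ccl2 and Ccl3 lay 0.64 apart, with Stil, a centriole gene, nearest to both (0.31 and 0.33), and the growth factor gene Areg next for Ccl2 (0.61). Ccl6 was nearest to A930033H14Rik (0.11). Ccl7 was nearest to the proton pump gene Atp12a (0.41) and then to Il1b (1.35). Cxcl2 was nearest to Tfpi2 (1.08), the other gene listed at 0 in sham.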

How the data were processed

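RNA of the hippocampus was sequenced in 3 ischemia and 3 sham samples. The submitters' processing notes name Bowtie 0.12.2 and mm8 without their roles, while the gene identifiers are of the Ensembl BALB/cJ annotation in 612 of 637 rows. How reads were counted, scaled and tested, and the use of strand, are steps not given in the sources used here. What the authors deposited was, per the file headers and values, 1 read signal per gene and group, a normalised read count averaged over the samples, headed M2 and S2. M was taken for middle cerebral artery occlusion and S for sham. The deposited log2 fold change equals the log2 ratio of the means to within 5.0e-05, with no pseudocount. Each p-value and its adjustment are copied as deposited. The table has 0 columns of single samples, so no test across genes was run, and limma or edgeR could not be used as planned for values per sample.

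The number of genes tested was found from the adjusted p-values: Benjamini-Hochberg adjustment over 28319 genes returned all 637 within their printed digits. A group mean is a sum of whole reads, each times 1 step per library (1 divided by 3 times its size factor). Lattice reduction of the 12 lowest means of a group gave 9 integer relations and 1 set of steps between 0.2 and 0.6. Means up to 450 were split into whole reads within 0.6 of the last digit plus the error of the steps; 140 of 172 ischemia means and 193 of 197 sham means had 1 solution, and none had no solution. The split and the search were also run on simulated data, whose outcome is not given here, so nothing is concluded from it. Depth is taken from the size factors, only relative to other libraries, and intervals cover counting error only.

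The members and the 17 gene lists were chosen with earlier results of these data known. Named genes are the members, up to 4 called genes with the smallest p-values per list, and for each member the 3 nearest genes; not all of the nearest are printed. Alternatives were stricter thresholds, pseudocounts of 1 and 5 and leaving out each library. Lengths and shared stretches came from GENCODE M21 by symbol and promoters from RefSeq, used without the files' coordinates. Python 3.11.15, numpy 2.4.6, scipy 1.17.1 and matplotlib 3.10.9 were used.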

Additional observations from a re-analysis of the deposited data

How the results depend on the processing

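All 7 members kept a rise of at least 2-fold under each of the 6 omissions of a library (7 to 7 members), a count chosen after the data were seen. None of the 42 log2 fold changes so computed turned its direction, which groups that do not overlap fix in advance. The 2-fold count was also fixed for Ccl2, Ccl3, Ccl7, Ccl24 and Cxcl1. Their lowest ischemia library was at least 2.37 times the highest sham library. For Ccl6, at 1.49 times, the count could have changed. In 7 of the 42 the fold moved by over 1.5 times; these concern Ccl7, Ccl3, Ccl24, Cxcl1 and the bound of Cxcl2 and are given beside each gene. Of the 7 called members, 6 passed an adjusted p of 0.01 and 3 (Ccl7, Cxcl2 and Ccl24) passed 0.001. All 7 had a log2 fold change of at least 1, 6 had a larger group mean of at least 50 normalised reads and 3 (Ccl2, Ccl3 and Ccl6) of at least 100, so these thresholds pick different members. The log2 fold change of Ccl7 went from 6.68 to 5.60 with a pseudocount of 1 and to 4.01 with 5, and for Cxcl2 it was 2.88 with a pseudocount of 5, under its bound of 5.08. With the shortest in place of the longest transcript, chosen after the data were seen, the fold of the summed level went from 8.13 to 5.0 for the CC and from 11.3 to 17.4 for the CXC ligands. Since the table holds calls only, stricter settings could only remove members. No paired analysis was possible because the table gives group means and the separated libraries carry no replicate number. Another scaling was not run, since it needs values of all genes per sample. The low sham reads (0 to 37 reads over 3 libraries for every member except Ccl6) limit the precision of the folds.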
